A study of Mus musculus with 24 samples.

Results

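Module M[2] is a set of transcripts that the study clustered by their expression over time in mouse left ventricle after sham surgery, and its name in the study marks a profile that goes down at 24 h. The members analysed here were taken from the study's module list by their UCSC identifiers: 209 transcripts carrying 208 gene symbols, out of 63758 transcripts in the count table; 1 further listed transcript was left out and is not reported here. Of these, 200 passed the filter on low counts, among 8940 transcripts that passed in all. The study clustered only transcripts that it had first called changed over time in the same 24 ventricles. The direction of the members at 24 h was therefore already chosen by the grouping, and their size of change was selected by that call. Their changes are given as a description, with their spread, their functions and their behaviour under other settings.

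Left ventricles of male C57BL/6 mice (C57BL/6J and 8 to 12 weeks old in the methods) were collected at 0 min, 45 min or 24 h, with 8 mice at each time point and each mouse sampled at a single time. All 24 mice, those at 0 min included, were anaesthetised with pentobarbital, received buprenorphine and underwent a left thoracotomy in which a suture was passed under the left anterior descending coronary artery without being tied. Only the 24 h animals had the chest closed and woke from anaesthesia, so time and recovery cannot be told apart, and no unoperated mouse is in the comparison. Poly-A RNA was sequenced from a directional library, and the values below are read counts per transcript, shown as CPM, the counts scaled by library total after trimmed mean (TMM) normalisation. The total counts per sample ran from 9887957 to 14091629, and between 12972 and 18865 transcripts had at least 1 count. The lowest number of transcripts detected was in 3 of the 45 min samples, replicates 6, 7 and 8, with 12972 to 14353.

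The heart muscle cell spends most of its volume on sarcomeres and mitochondria. Sarcomeres shorten through actin and myosin filaments that are anchored at the Z disc, and mitochondria supply their ATP by way of pyruvate dehydrogenase, the citrate cycle, the respiratory chain and ATP synthase. Many of the genes for these parts are encoded in the nucleus, and the mitochondrial ribosome and its tRNA synthetases serve to translate the few proteins that mitochondrial DNA encodes. Capillary endothelium, fibroblasts and resident leukocytes make up much of the rest of the wall, and Notch and semaphorin signalling act in its vessels.

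M[2] held genes of the sarcomere and the mitochondrion and some of the vessel wall. The paper reports no significant gene ontology term for this module. The groups named here are counts of members and show no enrichment. No transcript on the marker lists for fibroblasts, neutrophils, monocytes and macrophages was a member. Those that could be matched stand in modules that rise at 24 h, so their absence here was set by the clustering. M[2] did hold the antigen presentation gene Cd74 and an immunoglobulin entry, abParts. Its most abundant annotated gene was the cardiac actin Actc1, and its largest groups by function were nuclear genes of the mitochondrion (39 tested members), secreted and surface growth signalling genes (15), transcription factors and cofactors (12), folding and ubiquitin genes (11), kinases and stress genes (10), and sarcomere and Z disc genes and lipid genes outside the matrix (9 each). At 24 h every one of the 200 tested members had a lower fitted level than at 0 min, with a median log2 fold change of -0.62, which is 1.54-fold lower, quartiles of -0.95 and -0.40 and a range from -3.09 to -0.12. The median over all 8940 transcripts was 0.0033. The module was thus mostly made of small changes: 106 members were lower by more than 1.5-fold, 44 by more than 2-fold, and 80 by less than 0.5 on the log2 scale.

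The functional lists used below were written with the members known. A transcript was called lower when its adjusted p was under 0.05 in the quasi-likelihood test of edgeR, with Benjamini-Hochberg adjustment over all 8940 transcripts. At 24 h against 0 min 119 of the 200 members (59.5%) were called lower and none higher, where 3.24% of all transcripts were called lower. This share follows from how the module was built. In 30 tested members every 24 h sample lay below every 0 min sample, as it did for 0.649% of all transcripts. These 30 included Actc1, Lmod3, Ky, Tmod1, Casq1, Lynx1, Rnf207, Plxnd1, Bmp7, Mdga1, Lrrc4b, Mmp15, Foxo6, Cxcl9, Trak1, Coq5 and Abcb10.

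For each sample, the level of the module was summarised as the mean over its 200 tested members of the standardised log2 CPM. In the 0 min hearts the score was 0.41 ± 0.33 (mean ± SD, n = 8 at each time), in the 45 min hearts 0.55 ± 0.49 and in the 24 h hearts -0.96 ± 0.35. It ran from -0.17 to 0.97 at 0 min and from -1.47 to -0.45 at 24 h, so these groups did not overlap, a separation that the choice of members already favours. The 45 min samples ran from -0.03 to 1.31, and the 3 highest of them were replicates 6, 7 and 8, the samples with the fewest transcripts detected.

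**Figure D1:**
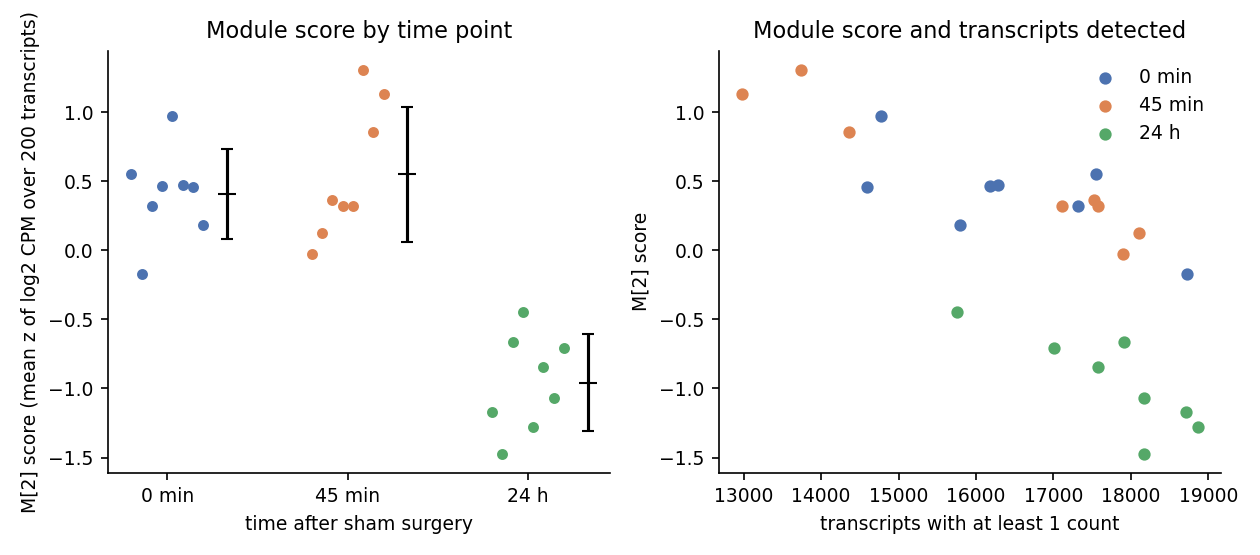
Left, M[2] score of each ventricle by time point (points, n = 8 each) with mean ± SD (bars); right, the same score against the number of transcripts with at least 1 count, coloured by time point. The 24 h samples sit between -1.47 and -0.45, below all others, and r between the 2 measures is negative within each time point.

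Across all 24 samples the score went down with the number of transcripts detected (Pearson r = -0.75, Spearman rho = -0.78). Taken by time point, the 0 min samples gave r = -0.67, the 45 min samples -0.96 and the 24 h samples -0.82, with rho of -0.26, -0.88 and -0.83 (n = 8 each). The points share library and depth, and both measures come from the same counts, so these values describe the samples and carry no test. The same measure over 2 other modules with lower values at 24 h gave r = -0.86 for M[3] and -0.03 for M[4] over the 24 samples. The number detected was itself higher at 24 h, with a median of 18038 against 16232 at 0 min and 17321 at 45 min. Each member was therefore also fitted with that number as a covariate. Because the number differed with time, such a fit may also remove part of a change with time. What a lost or kept call owes to this was not tested.

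With the number of transcripts detected in the fit, 100 of the 200 members (50%) were called lower at 24 h, where 5.21% of all transcripts were. All 100 were among the 119, so 84% of the calls were kept, 19 were lost and none was gained. The fitted level stayed lower at 24 h in all 200 members, but the median change shrank from -0.62 to -0.47, and the change was smaller in 192 of the 200. A member kept a median of 77.3% of its log2 fold change, or 84.2% among those called without the covariate. In M[3], 28 of 39 calls (71.8%) were kept and the median moved from -0.75 to -0.41; in M[4] all 57 calls were kept and the median moved from -0.70 to -0.81. The difference between modules was not tested. Over all transcripts 248 of 290 calls (85.5%) were kept. All 30 members without overlap were still called.

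**Figure D2:**
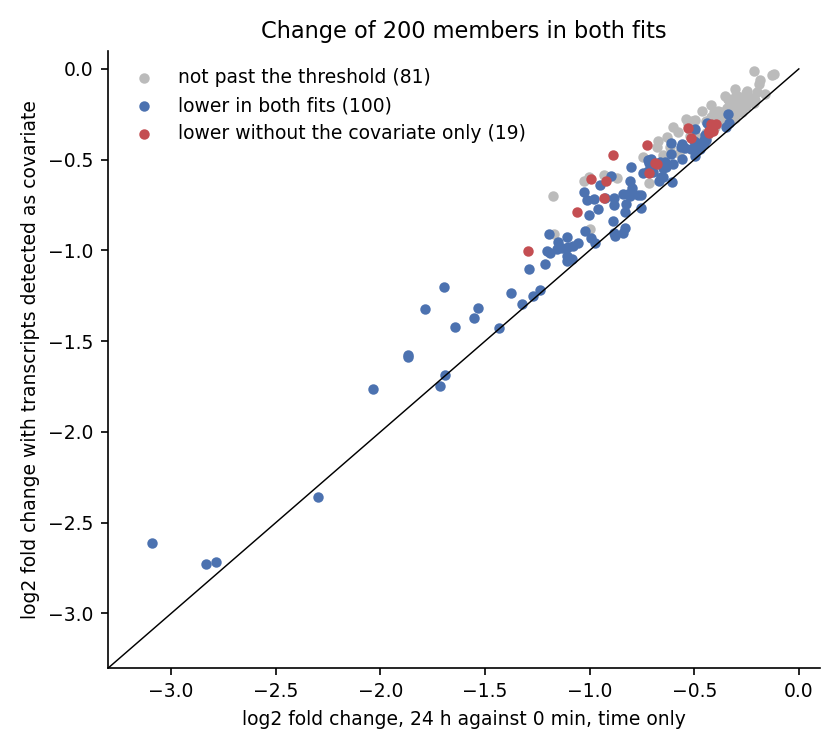
Log2 fold change of the 200 tested members at 24 h against 0 min in the fit on time only (horizontal) and with the detected transcripts of each sample as a covariate (vertical); the line marks equal values, and colours mark 100 members called lower in both fits, 19 in the first alone and 81 in neither. Nearly all points lie above the line, that is, closer to 0 with the covariate.

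In 8 members the change was not smaller with the covariate, and all 8 were called in both fits. The 5 of them that kept most were, by log2 fold change without and with the covariate, the sodium channel subunit Scn4b (-0.84 and -0.90), the sorting receptor Sorcs2 (-0.83 and -0.87), the semaphorin receptor Plxnd1 (-0.88 and -0.92), melanoregulin Mreg (-0.61 and -0.62) and the ciliary transport gene Ift122 (-2.30 and -2.36), and the others were Hr, Bmp7 and Map7d1. Among called members, those that kept least were Hsbp1l1 (53.6% of its log2 fold change), AK084494 (57.8%), Fam222a (61.1%), the methionine salvage enzyme Adi1 (61.8%) and Itm2a (65.7%). Itm2a was still called lower with the covariate. The 19 members whose call was lost included Adi1, AK084494, Cdh13, Dapk2, Eid2b, Fam222a, Glt8d2, Gm5512, Hsbp1l1, Isca1, Mfsd4b1, Nr4a1, Pdss1, Perm1, Pfkl, Uckl1os, Zfp362 and 2310040G24Rik. By function they were scattered: 3 belonged to the transcription factors and cofactors, and the sarcomere list and the growth signalling list lost none.

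Among the contractile genes the cardiac actin stood out in level. Actc1, cardiac alpha actin (chromosome 2, 114047282 to 114053548, minus strand, GRCm38), had 12100 CPM in the lowest, 14600 in the median and 18900 in the highest 0 min sample, and 3400, 5940 and 7810 CPM at 24 h. No 24 h sample came within reach of a 0 min sample, and the 45 min samples, at 12700 to 23500 CPM, lay with the 0 min group. The log2 fold change at 24 h against 0 min was -1.38 ± 0.18 (SE), and -1.24 with the covariate. Per kilobase of exon, Actc1 stood at 9178 CPM per kb at 0 min, before the ATP synthase alpha subunit Atp5a1 at 1624, the Z disc protein Actn2 at 666, the succinate dehydrogenase subunit Sdhd at 438 and citrate synthase Cs at 375. Of these 5, Atp5a1, Actn2 and Cs were not called, with log2 fold changes of -0.22, -0.20 and -0.22.

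Of 9 sarcomere and Z disc members, 6 were called lower, the same number with the covariate, with a median log2 fold change of -0.81. Lmod3, a leiomodin that nucleates actin filaments, ran from 104 to 161 CPM (median 137) at 0 min and from 39.6 to 80.8 CPM (median 52.0) at 24 h. Ky, a protease that acts in the upkeep of muscle, had 33.8 to 78.4 CPM (median 47.3) at 0 min and 15.4 to 30.1 CPM (median 19.6) at 24 h. In both genes the groups did not overlap, and the changes were -1.24 ± 0.15 and -1.27 ± 0.18. Myosin binding protein C, Mybpc3, had -0.81 ± 0.17 with overlapping samples (248 to 432 CPM at 0 min, 122 to 315 CPM at 24 h). The smooth muscle protein Smtn (-1.10) and the thin filament cap Tmod1 (-0.49) were also called, whereas Capzb (-0.21) and Trim55 (-0.33) were not. Without Actc1, the summed CPM of the list's members was 3300 at 0 min (2880 to 3710) and 2700 at 24 h (2200 to 3060), a smaller ratio than that of Actc1.

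**Figure D3:**
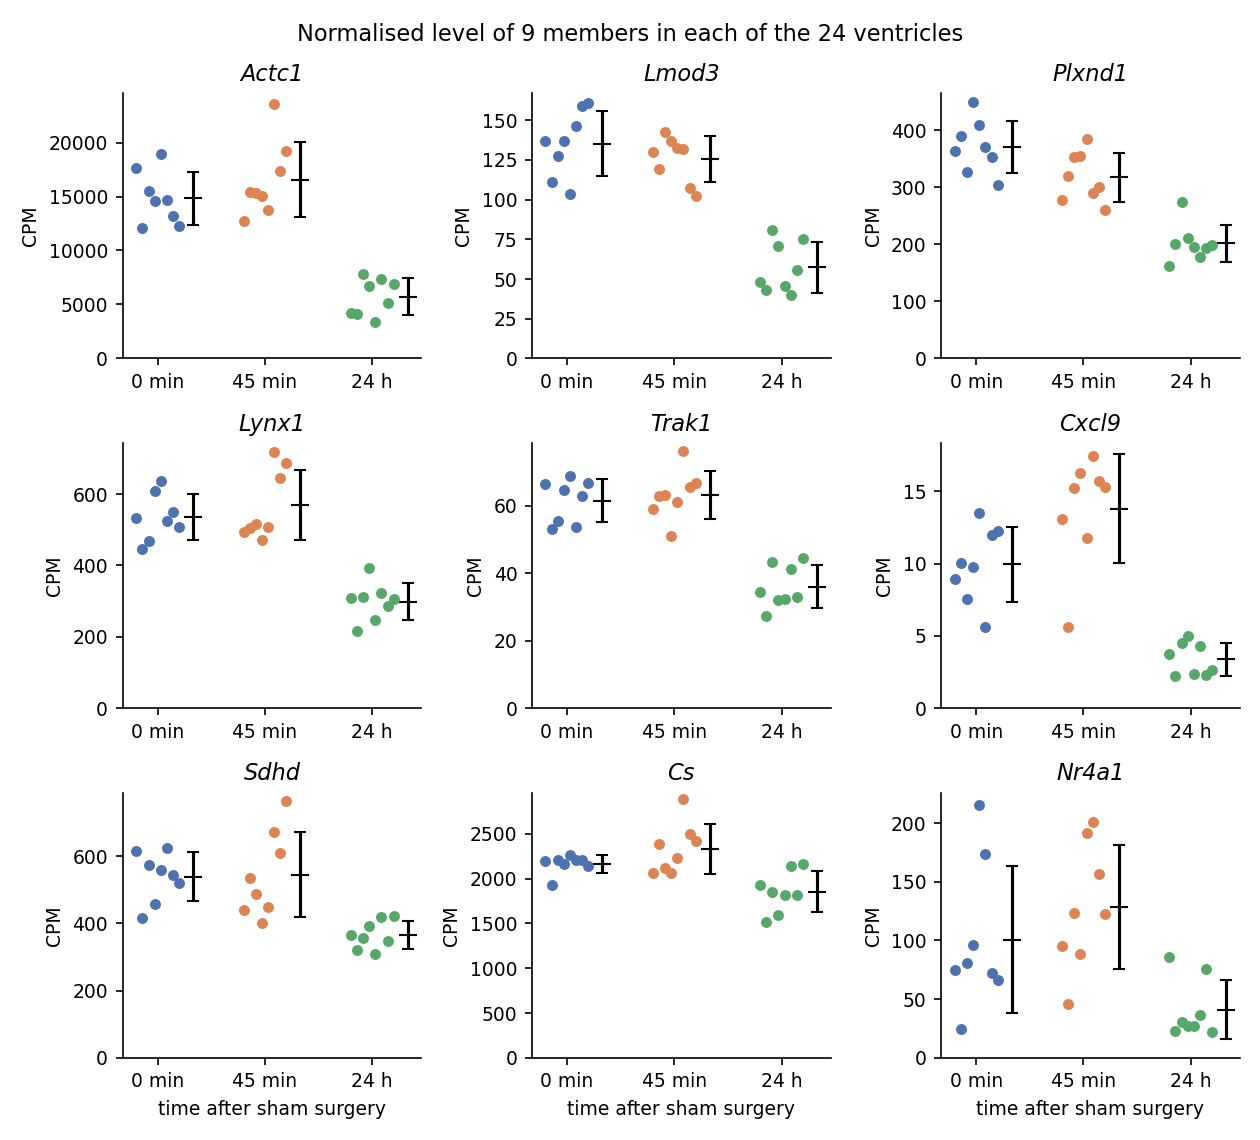
CPM of 9 members in each of the 24 ventricles (points) by time point, with mean ± SD (bars, n = 8); each axis starts at 0. In Actc1, Lmod3, Plxnd1, Lynx1, Trak1 and Cxcl9 all 24 h samples lie below all 0 min samples, whereas Sdhd, Cs and Nr4a1 overlap.

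Genes of electrical excitation followed. Of 7 members on the list of ion channels and receptors, 5 were called lower with and without the covariate, with a median of -0.84. Lynx1, which modulates nicotinic acetylcholine receptors, had 445 to 637 CPM (median 529) at 0 min and 217 to 392 CPM (median 306) at 24 h, without overlap (-0.84 ± 0.13). Hcn2, a pacemaker current channel (chromosome 10, 79716634 to 79736108, plus strand), had 39.6 to 135 CPM (median 58.6) and 16.4 to 41.4 CPM (median 26.2), and its change was -1.20 ± 0.23. Its highest value, in 0 min replicate 5, stood far from the next sample at 73.6 CPM. Rnf207, a ubiquitin ligase known from cardiac repolarisation, was lower without overlap (-1.11 ± 0.13), Scn4b was called (-0.84 ± 0.20), and so was the subunit of the ATP-sensitive potassium channel Kcnj11 (-0.47). The background potassium channel Kcnk3 (-0.32 ± 0.13) and the adrenergic receptor Adra1d (-0.60) were not.

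Among membrane, caveolar and calcium proteins of muscle, 5 of 7 were called and 4 with the covariate, with a median of -0.53. Casq1, a calcium buffer of the sarcoplasmic reticulum best known from skeletal muscle, ran from 5.09 to 8.59 CPM at 0 min and from 1.29 to 5.02 CPM at 24 h (-1.20 ± 0.28). Smco1 (-0.75 ± 0.17), Sh3bgr (-0.70 ± 0.14) and the caveolar gene Murc (-0.35) were called. The call of Perm1, a regulator of muscle oxidative metabolism (-0.39), was lost with the covariate. Fndc5, the precursor of irisin and the most abundant of the list, had 564 to 934 CPM at 0 min and 285 to 918 CPM at 24 h, and was not called (-0.53 ± 0.20).

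The 39 mitochondrial members, spread over 8 lists, had small changes. Their median log2 fold change was -0.44 (range -1.08 to -0.13), beside -0.71 for the other 161 members, and 19 (48.7%) were called, 16 (41.0%) with the covariate, beside 62.1% and 52.2% of the others. Their summed level was 12500 CPM at 0 min (10700 to 13600), 12800 CPM at 45 min (11500 to 16600) and 10100 CPM at 24 h (8490 to 11500). These medians and ranges describe the summed levels of chosen transcripts and carry no test. The size of change of all members was selected by the study's call. The difference between the mitochondrial and the other members was not tested, and these sets were not matched for abundance.

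In the mitochondrial ribosome 4 of 6 members were called, all 4 also with the covariate: Mrps9 of the small subunit (-0.61 ± 0.16) and Mrpl18 (-0.61 ± 0.13), Mrpl45 (-0.44) and Mrpl19 (-0.45) of the large subunit. Mrpl39 (-0.46 ± 0.17) and Mrpl35 (-0.32) were not. Mrpl18 had 59.2 to 84.6 CPM at 0 min and 43.4 to 61.9 CPM at 24 h. For mitochondrial translation and RNA 3 of 5 were called and 2 with the covariate. Taco1, an activator of the translation of a cytochrome oxidase subunit (-0.66 ± 0.13), and Qrsl1, which helps charge the glutamine tRNA (-0.60 ± 0.12), were called in both fits.

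Of 5 citrate cycle and pyruvate dehydrogenase members, Sdhd and the dehydrogenase subunit Pdhb were called in both fits. Sdhd, which anchors succinate dehydrogenase in the membrane (chromosome 9, 50596357 to 50603812, minus strand), had 415 to 625 CPM (median 551) at 0 min and 308 to 422 CPM (median 361) at 24 h, a change of -0.56 ± 0.13 with a small overlap. Pdhb had -0.50 ± 0.12. Dlst of the oxoglutarate dehydrogenase complex (-0.37 ± 0.13), Cs (-0.22 ± 0.11) and its near copy Csl (-0.31 ± 0.10) were not called. The longest protein-coding transcripts of Cs and Csl are 91.9% identical over 1577 aligned bases in GENCODE M21, so reads may have been split between them. In the ATP synthase list none of 5 members was called: Slc25a3, the phosphate carrier (-0.41 ± 0.14), Ak3 (-0.24), Atp5a1 (-0.22), Atpaf1 (-0.25) and Atpaf2 (-0.19).

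Of 6 respiratory chain assembly and iron-sulphur members 4 were called, with Lyrm9 (-0.51 ± 0.14), Lyrm7, which acts in complex III assembly (-0.45 ± 0.13), Isca1 of iron-sulphur cluster assembly (-0.42 ± 0.12) and the inner membrane transporter Abcb10 (-0.34), which did not overlap. Isca1 was not called with the covariate. In coenzyme Q synthesis Coq5 (-0.45 ± 0.11) was lower without overlap, with 126 to 166 CPM at 0 min and 81.8 to 125 CPM at 24 h. Pdss1, which builds the isoprenoid tail (-0.69 ± 0.19), lost its call with the covariate, and Coq7 (-0.65 ± 0.21) had none. Of 7 matrix enzymes and carriers 3 were called, namely Nat8l, which makes N-acetylaspartate (-1.08 ± 0.22), the pyrimidine nucleotide carrier Slc25a33 (-0.72 ± 0.18) and Mmab of cobalamin metabolism (-0.46 ± 0.12). Trak1, an adaptor that couples mitochondria to kinesin, had 53.1 to 68.9 CPM (median 63.7) at 0 min and 27.4 to 44.6 CPM (median 33.6) at 24 h, without overlap (-0.77 ± 0.11). Its partner in that transport, the outer membrane GTPase Rhot2, was not called (-0.36 ± 0.13).

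**Figure D4:**
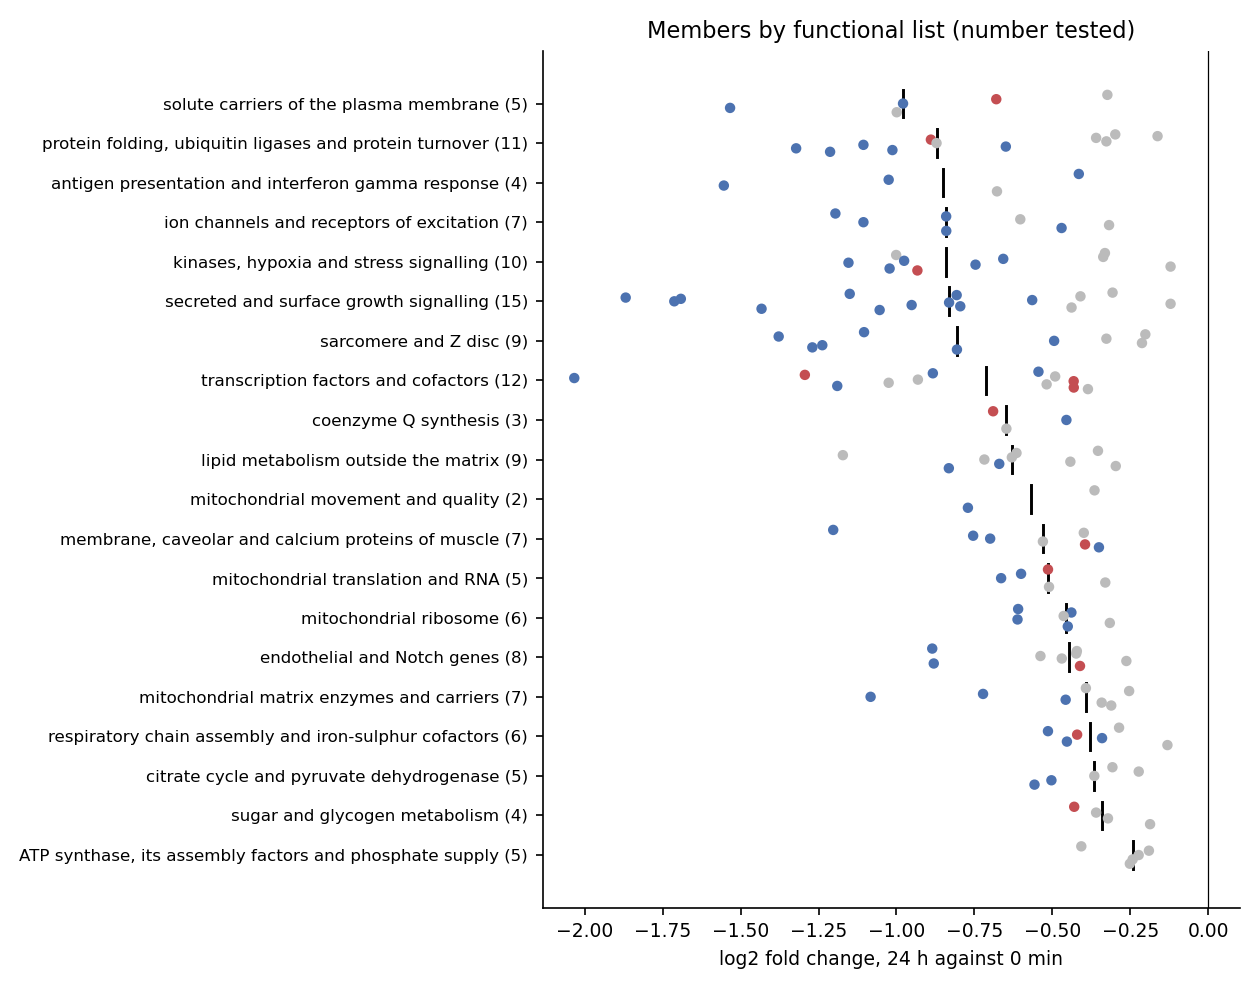
Log2 fold change at 24 h against 0 min of the members on each of 20 functional lists (points; number tested in parentheses), with the median as a bar; blue marks members called lower with and without the covariate, red those called without it alone, and grey those not called. Medians run from -0.98 for 5 solute carriers to -0.24 for 5 ATP synthase members, none of which was called.

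Among genes of secreted and surface growth signalling 11 of 15 members were called, all 11 with the covariate, with a median of -0.83. The lists were not matched for abundance, and scarce members of the module had larger changes. The median was -0.99 for members under 10 CPM at 0 min and -0.41 for those above 100 CPM. Bmp7, a bone morphogenetic protein, had 1.76 to 4.02 CPM (median 2.47) at 0 min and 0.324 to 1.17 CPM (median 0.730) at 24 h (-1.71 ± 0.24). Mdga1, an adhesion protein anchored by a lipid, had -1.69 ± 0.26. Neither gene had overlapping groups. Rtn4r, the Nogo receptor, had -1.87 ± 0.43, but its 0 min samples ran from 4.98 to 54.1 CPM, the widest relative spread of any member at that time (coefficient of variation 85.0%, against a median of 19.2%). The synaptic adhesion gene Lrrc4b (-1.43), Lingo3 (-1.15), the protease Htra1 (-1.05), the Wnt modulator Dact3 (-0.95) and ephrin B3, Efnb3 (-0.81), were called too. The most abundant, glypican Gpc1, was not (-0.31 ± 0.15), nor was the G protein subunit Gna12 (-0.12 ± 0.12), the smallest change in the module.

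In the endothelial and Notch list 3 of 8 members were called and 2 with the covariate. Plxnd1, a semaphorin receptor of vessels (chromosome 6, 115954811 to 115995005, minus strand), had 305 to 450 CPM (median 366) at 0 min, 259 to 384 CPM (median 311) at 45 min and 162 to 274 CPM (median 197) at 24 h. The 24 h samples lay below all 0 min samples (-0.88 ± 0.12). Pcdh12, a cadherin of endothelial junctions, was called lower in both fits (-0.89 ± 0.17), and Cdh13 (-0.41) without the covariate alone. The Notch ligand Dll4 (-0.54 ± 0.23) and the Notch target Heyl (-0.26) were not called, and nor were Vegfb (-0.42), Nostrin (-0.42) and Ddah1 (-0.47).

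Among 12 tested transcription factors and cofactors 7 were called and 4 with the covariate (Foxo6, Sox30, Hr and Ybx2). The forkhead factor Foxo6 ran from 3.35 to 12.5 CPM (median 6.46) at 0 min and from 0.579 to 3.15 CPM (median 1.54) at 24 h, without overlap (-2.03 ± 0.31). The immediate early nuclear receptor Nr4a1 varied widely among hearts at 0 min, from 24.7 to 216 CPM (median 77.6), and had 21.6 to 85.7 CPM (median 28.8) at 24 h. Its change of -1.29 ± 0.37 was called in the fit on time only and not with the covariate. Cited4, the most abundant of the list per kilobase of exon, had 17.3 to 104 CPM at 0 min and was not called (-0.93 ± 0.32).

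The immune members were few. Cxcl9, a chemokine induced by interferon gamma, had 5.64 to 13.5 CPM (median 9.92) at 0 min, 5.62 to 17.4 CPM (median 15.3) at 45 min and 2.2 to 5.01 CPM (median 3.22) at 24 h. All 24 h samples were below all 0 min samples (-1.55 ± 0.23). Cd74, the invariant chain of class II antigen presentation, had -1.02 ± 0.28, with a single high sample at 0 min (16 CPM, next 6.77 CPM), and the cytokine receptor subunit Il10rb had -0.41 ± 0.11. An immunoglobulin entry, abParts, had -0.68 ± 0.21 and was not called. These changes went with higher leukocyte markers in the same samples: the summed CPM of 4 neutrophil marker transcripts had a median of 4.20 at 0 min (2.41 to 13.6) and 361 at 24 h (97.6 to 546), and that of 9 monocyte and macrophage transcripts 50.5 (37.5 to 65.4) and 212 (79.2 to 373).

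A marker transcript has a symbol here only if the study named it. The study's module list holds transcripts that it had called changed over time in these same ventricles. That the marker sums changed was therefore fixed beforehand, for the leukocyte lists above and for those that follow. The 2 fibroblast transcripts Col3a1 and Col1a2 summed to a median of 522 CPM at 0 min (413 to 704) and 936 CPM at 24 h (377 to 1220), and 3 transcripts of epicardium and mesothelium to 1.47 CPM (0.558 to 5.07) and 12.4 CPM (3.17 to 30.2). The cardiomyocyte list of 13 genes had 3 named transcripts, Actc1, Actn2 and Mybpc3, all members of M[2] and all detected in every sample. Their summed median was 17500 CPM at 0 min (14600 to 22200) and 8350 CPM at 24 h (5470 to 10200). Most of this sum was Actc1, with a mean of 14850 CPM at 0 min and 5717 CPM at 24 h. Mybpc3 was also called lower (-0.81), and Actn2 was not called (-0.20). The other genes of the list were not named, so the sum does not stand for heart muscle cells as a whole. No gene of the lists for endothelium, skeletal muscle, lymphocytes, red cells and adipocytes was among the named transcripts. The part of these shifts in the lower levels of the members was not tested. In a whole ventricle, fewer cells of a type and less RNA per cell cannot be told apart.

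Among protein folding, ubiquitin and turnover members 6 of 11 were called and 5 with the covariate (median -0.87). Trim7, a ubiquitin ligase that binds glycogenin, was present as 2 member transcripts, with -1.21 ± 0.19 and -1.32 ± 0.26. Both belong to 1 gene, so how their reads were split is uncertain. The autophagy gene Atg9b (-1.01) was called, and Hsbp1l1 (-0.89 ± 0.28) lost its call with the covariate. The most abundant member of the list, the lysosomal protein Laptm4a, had -0.16 ± 0.09 and was not called.

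Kinases, hypoxia and stress genes had 6 of 10 called and 5 with the covariate (median -0.84). Ip6k3, an inositol hexakisphosphate kinase of muscle, ran from 17.9 to 32.5 CPM at 0 min and from 5.10 to 19.9 CPM at 24 h (-1.15 ± 0.23). Gadd45a, a growth arrest gene, had -1.02 ± 0.22, the ribosomal S6 kinase Rps6ka2 was lower without overlap (-0.98), and the oxygen sensor Egln3 was called (-0.66). Rasd1, a Ras-like gene induced by dexamethasone, was not (-1.0 ± 0.36).

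Of the solute carriers of the plasma membrane 3 of 5 were called and 2 with the covariate (median -0.98). Slc51a, a subunit of a bile acid and steroid transporter, had 0.607 to 1.66 CPM at 0 min and 0.0827 to 0.529 CPM at 24 h (-1.53 ± 0.32). The amino acid transporter Slc36a2 had -0.98 ± 0.21. Mfsd4b1 (-0.68 ± 0.19) lost its call with the covariate, and its copy Mfsd4b3 (-0.32 ± 0.20) had none. Those neighbouring genes are 88.2% identical over 1389 aligned bases, so their counts are uncertain. In lipid metabolism outside the matrix 2 of 9 were called, Paqr9 (-0.83 ± 0.12), without overlap, and the phosphodiesterase Gdpd5 (-0.67). Dgat2, which completes triglyceride synthesis, had 344 to 520 CPM at 0 min and 227 to 533 CPM at 24 h, and was not called (-0.44 ± 0.15). Among 4 sugar and glycogen genes only the liver-type phosphofructokinase Pfkl was called (-0.43 ± 0.13), and not with the covariate.

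The functional lists held 43 more tested transcripts that are named in the study's tables but are not members. Of these, 8 were called lower at 24 h against 0 min, 7 higher and 28 neither. Those called lower were the pacemaker channel Hcn4 (-0.91), the pyruvate dehydrogenase phosphatase Pdp2 (-0.74) and subunit Dlat (-0.44), Glrx5 (-0.69), Coq10a (-0.81), Phkg1 (-0.65) and other transcripts of Trim7 (-0.86) and Tnni3k (-0.59), and all but Hcn4 stood in modules M[3] or M[4]. Those called higher were the stress gene Ankrd1 of the sarcomere list (1.58), Bnip3 of mitochondrial quality control (1.16), the lipid droplet proteins Plin2 (1.17) and Plin4 (0.61), Acot1 (1.03), Slc7a5 (0.97) and Slc6a6 (0.77). The lists were written with the members already known, and only transcripts named in the study's tables could be matched to a symbol. Few of the listed genes beyond the members could therefore be tested, and the counts say nothing of a pathway as a whole.

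The largest fold changes belonged to scarce transcripts. Gm28979, a long intergenic RNA (chromosome 9, 101342194 to 101348017, plus strand), had 2.93 to 5.56 CPM (median 4.66) at 0 min, 2.86 to 6.38 CPM (median 4.69) at 45 min and 0.248 to 1.05 CPM (median 0.653) at 24 h. This is a change of -2.79 ± 0.26 with no overlap, and -2.72 with the covariate. A930017K11Rik (-3.09 ± 0.55) and Fam163b (-2.83 ± 0.49) were nominally larger but had medians of 0.816 and 1.23 CPM at 0 min, and each was at 0 in at least 1 of the 24 h samples, so their fitted changes depend on the prior count. Ift122 (-2.30 ± 0.28) had 1.27 to 3.49 CPM at 0 min and 0.248 to 0.778 CPM at 24 h. Klhdc8a, a gene with kelch repeats (chromosome 1, 132298626 to 132307357, plus strand), was the most abundant of the 8 members with the largest changes, with 45.9 to 88.7 CPM (median 56.2) at 0 min, 37.8 to 103 CPM (median 53.4) at 45 min and 10.3 to 35.1 CPM (median 13.9) at 24 h (-1.87 ± 0.25). AK077350 had -1.78 ± 0.45.

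Size and abundance went in opposite directions within the module. The 57 members under 10 CPM at 0 min had a median change of -0.99, the 98 between 10 and 100 CPM -0.59, and the 45 above 100 CPM -0.41. The numbers called were 36, 60 and 23, and 27, 55 and 18 with the covariate. The median member stood at 31.8 CPM at 0 min. A filter on low counts keeps a scarce transcript only if it is high enough in some group. The study's call for change over time also selected the members, and a scarce transcript passes such a call only with a larger change. These medians hold for the members tested and give no relation of size to abundance beyond them. A single transcript, AK018753, which has no match in the annotation and was singled out after its values were seen, had 57200 to 108000 CPM at 0 min and 48600 to 90600 CPM at 24 h (-0.31, not called). Without it and Actc1 the summed level of the tested members was 26200 CPM at 0 min (22400 to 29500) and 20400 CPM at 24 h (16700 to 22400).

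The 9 members that did not pass the filter were Dnajb3, AK006637, Pitx3, a transcript of Tnni3k, Gm13031, Gkn3, Zp2, Mir133a-2 and Clec2l. None had more than 27 counts in any sample. Mir133a-2 is the precursor gene of a muscle microRNA (chromosome 2, 180398379 to 180398482, plus strand). It had 0.549 to 1.76 CPM at 0 min and 0 to 0.462 CPM at 24 h, with at most 18 and 7 counts in a sample. A poly-A library does not measure the mature microRNA, and no change is given.

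At 45 min the module was not lower, a level that the clustering over all 24 samples also shaped. None of the 200 members was called lower against 0 min, where 0.246% of all transcripts were, and 5 had an unadjusted p under 0.05 in that direction. DESeq2 and limma-voom also called none. The median log2 fold change was 0.068, and 70 members had negative values. The 1 member called higher, where 0.481% of all transcripts were, was Slc25a33, with 13.5 to 24.9 CPM (median 18.9) at 0 min and 16.6 to 58.1 CPM (median 33.9) at 45 min (0.86 ± 0.18). Rasd1 had 1.17 ± 0.35 and was not called. With the number of transcripts detected in the fit, 2 members were called lower at 45 min, where 0.459% of all transcripts were, and both are on the endothelial list. Pcdh12 had 18.7 to 31.2 CPM (median 26.2) at 0 min and 13.8 to 22.4 CPM (median 16) at 45 min. Dll4 had 32.7 to 79.0 CPM (median 47.8) and 22.1 to 62.9 CPM (median 29.8). Leaving out single samples took away the call of either or of both in 20 of 24 such fits.

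Against 45 min, 155 of the 200 members were called lower at 24 h, where 4.51% of all transcripts were, with a median of -0.66. This comparison shares its 24 h samples with that against 0 min, and its 45 min samples also entered the clustering. The count was lower without the 45 min samples with few transcripts detected. Without replicates 6, 7 and 8 of that group, 68 of 201 members were called lower with a median of -0.48. Over all transcripts that fit called 266 of 9516 lower at 24 h against 45 min. In it the median at 45 min against 0 min turned from 0.068 to -0.11. A smaller group also gives fewer calls, and leaving out 3 other 45 min samples was not tried. The 45 min replicates 6, 7 and 8 enter the comparison of 24 h with 0 min only through the filter and the estimate of the spread. There 141 of 201 members were called, beside 485 of 9516 transcripts in all. Without the 7 samples that had under 16000 transcripts detected (3 at 0 min, 3 at 45 min and 1 at 24 h), 24 h against 0 min gave 137 of 198 members, beside 925 of 9312 transcripts in all, and a median of -0.63. Both settings were chosen after the data were seen. Over the 3 time points together 136 members were called, where 8.91% of all transcripts were. The study's own test over time had called every member in these samples, so this count is not independent of the choice of members.

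Position and sequence were examined for what the clustering did not use. Of the 209 members 201 matched a gene of GENCODE M21 by symbol, at 200 gene positions, and 188 of these are protein-coding. For 96 of the 201 matched members another annotated gene overlaps their gene, on the opposite strand in 80. Whether the counting used strand is not stated in the sources used here, so reads of such pairs may not be separate. Promoter windows of RefSeq (GRCm38.p6; 250 bases before to 50 after each start) were found for 145 member genes, with 170 windows, and were compared with 32851 windows of all genes, searching both strands. The GC box GGGCGG was in 62.4% of the member windows and 35.7% of all, and GCATGCGC, the core bound by nuclear respiratory factor 1, in 7.06% and 2.71%. The ETS letters CCGGAAG were in 11.2% and 8.86%, the E box CANNTG in 67.1% and 72.3%, the CREB letters TGACGTCA in 1.76% and 1.79%, and TATAAA in 9.41% and 13.6%. The estrogen-related receptor letters TCAAGGTCA were in 1.18% (Sdhd and Hcn2) and 0.423%, and the MEF2 letters CTAAAAATA in none and 0.517%. The windows of all genes were taken whether or not the gene is expressed here, while the member genes had all passed the filter on low counts. The 2 sets were not matched for expression or base content, so the shares do not set the members apart from other expressed genes. Genes with several windows count more than once, motifs may overlap, and no test was made.

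The stretches below, each before a RefSeq start site and on the strand of the gene, show the letters in capitals. That of Mrpl39 lies inside the gene as annotated in GENCODE M21 (84717576 to 84735742, minus strand). Those of Hcn2 are the estrogen-related receptor letters on the reverse strand (chr10:79716446-79716494), those of Mrpl39 (chr16:84735342-84735389), Abcb10 (chr8:123983127-123983174) and Vars2 (chr17:35667611-35667658), are the nuclear respiratory factor 1 letters on either strand, and those of Murc, listed as Cavin4, are a TATA box (chr4:48663464-48663509). Of the 8 member genes with the nuclear respiratory factor 1 letters, these 3 are shown because they are on the mitochondrial lists; the other 5, Plekhb2, Mreg, Zc3h8, Smim14 and Nhlrc1, are not on those lists.
Hcn2: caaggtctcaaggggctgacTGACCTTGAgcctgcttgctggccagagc
Mrpl39: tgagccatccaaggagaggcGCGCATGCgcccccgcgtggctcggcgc
Abcb10: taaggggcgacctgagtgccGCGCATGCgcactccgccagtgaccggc
Vars2: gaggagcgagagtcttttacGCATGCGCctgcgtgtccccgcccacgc
Murc: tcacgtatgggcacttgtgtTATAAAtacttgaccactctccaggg
The letters lie 160 to 168 bases before the RefSeq start site in Hcn2, 118 to 125 in Mrpl39, 25 to 32 in Abcb10, 39 to 46 in Vars2 and 25 to 30 in Murc. The changes of these genes at 24 h were unlike, from -1.20 in Hcn2 to -0.34 in Abcb10 and -0.35 in Murc, with Vars2 at -0.51 and Mrpl39 at -0.46, the last 2 not called.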

How the data were processed

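Left ventricle RNA of 24 mice was sequenced (poly-A, single end). The authors trimmed reads with cutadapt 1.9.1, mapped them to mm10 with TopHat2 2.1.0 and Bowtie2 2.2.9, and deposited raw counts per UCSC transcript made with HTSeq 0.6.0, per the submitters' processing notes; the counting mode is not given in the sources used here. Samples were grouped by the labelled time point. From the deposited counts, transcripts were filtered with filterByExpr (minimum 10 counts), scaled by TMM and tested with edgeR 4.0.16 (quasi-likelihood; time only; all 24 samples) under R 4.3.3, with Benjamini-Hochberg adjustment. The fit was checked on simulated data. Scores used log2(CPM + 0.5), standardised per transcript. Alternatives were other scalings and filters, DESeq2 1.42.0, limma-voom 3.58.1, covariates, a surrogate variable (sva 3.50.0), a replicate block, thinning and left-out samples.

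The members and lists were chosen with earlier results of these data known. Members named with values were, per functional list, the 3 with the largest change and the most abundant; the 8 largest changes overall; the 5 most abundant per exon length; the 5 called members that kept most and the 5 that kept least of their change with the covariate; near copies and repeated symbols; and the microRNA gene. Other members are named to account for a list, and 1 member is counted but its values are not reported here. Symbols exist here only for transcripts named in the study's tables. Labels do not say how mice were assigned to library pools or surgeons. The 24 h group differs from the others in recovery as well as time. Total counts set the precision; the CPM of a transcript with few counts carries counting error beside the spread between mice. In 84 pairs of samples of a time point, the lowest chi-square per degree of freedom was 10.6, so no library was counted as a repeat of another.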

Additional observations from a re-analysis of the deposited data

Results flagged for a closer look

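Single samples far from the other 7 of their time point, by Dixon's criterion for 8 values, were looked for in the CPM of each tested member named by rule, the module score, the total count and the number of transcripts detected. Of 273 groups 33 (12.1%) had such a sample. The criterion gives about 5% for normally distributed values, but CPM were used here without a log scale, so 5% is not the share to be met by chance. The genes are not independent, and a sample that stands apart does so in many of them. All were high values except that of Cs at 0 min. The score, the totals and the numbers detected had none.

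At 24 h, replicate 4 was the high sample 8 times: Gpc1 at 947 CPM, Klhdc8a at 35.1, Lyrm9 at 48.9, AK077350 at 2.94, Mrpl39 at 84.3, Hsbp1l1 at 4.58, Fam163b at 0.605 and Dll4 at 68.1 CPM. It had the highest score (-0.45) and the fewest transcripts detected (15753) of the 24 h group. Replicate 8 was high for Mrps9 (20.2 CPM), Csl (88.7), Isca1 (153) and Lyrm7 (12.4), replicate 6 for Mfsd4b3 (9.51 CPM), Nhlrc1 (11.7) and Dgat2 (533), and replicate 3 for Plxnd1 (274).

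At 0 min, replicate 5 was high for Hcn2 (135 CPM), Cideb (2.64), Rtn4r (54.1), Cd74 (16), Gna12 (221) and Slc29a4 (1.66). It had the highest score of its group (0.97). Replicate 4 was high for Bmp7 (4.02 CPM), and replicate 2 was high for Ift122 (3.49 CPM) and low for Cs (1930 CPM). At 45 min, replicate 6 was high for Slc36a2 (62.1 CPM), Actn2 (3570), Cideb (4.67), Il10rb (159) and Crat (569), and replicate 8 for Klhdc8a (103 CPM), Lyrm9 (60.0) and Mrpl18 (119).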

How the results depend on the processing

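At 24 h against 0 min the count of members called lower (119) stayed between 100 and 158 under most changes of the processing. These were other scalings, covariates, tools, blocks, thinning, a stricter filter, restriction to the samples compared and exclusions. With no filter on low counts 78 of 209 members were called, beside 188 of 27661 transcripts. The number called lower over all transcripts moved too, so the member counts are to be read beside it. It was 290 of 8940 in the main fit, 466 with the covariate and 991 with the surrogate variable, the fit that gave 158 members. No member was called higher. Leaving out each sample gave 95 (without 0 min replicate 5, beside 251 of 9117 transcripts) to 137 (without 24 h replicate 4, beside 508 of 9091). In all 24 of these fits 83 members were called. With the covariate the 100 calls ran from 77 (without 0 min replicate 1, beside 378 of 9104) to 123 (without 24 h replicate 8, beside 864 of 9075). Of the members 70 were called in all 24. At 24 h against 45 min there were 155 calls, beside 403 of 8940 transcripts in all. They became 96 with no filter (239 of 27661 in all) and 99 with the number detected after thinning as a covariate (449 of 8940). They were 106 with the number detected itself (444 of 8940) and 103 without the samples under 16000 transcripts (395 of 9312). Without 45 min replicates 6, 7 and 8 they were 68 (266 of 9516). With single samples left out they ran from 120 (300 of 9131 in all) to 177 (1100 of 9091). The covariate fits ran from 83 (without 45 min replicate 3, 327 of 9110) to 113 (614 of 9075). At 45 min against 0 min the count was 0, beside 22 of 8940 transcripts. It became 2 (Pcdh12 and Dll4) with either covariate (41 and 39 in all) or 1 surrogate variable (62 in all). Without the samples under 16000 transcripts it was 1 (Dll4), beside 14 of 9312. It stayed 0 with any single sample left out, and with the covariate ran from 0 to 2. Over time the 136 calls (797 of 8940 in all) ran from 106 (585 of 9057) to 160 (1291 of 9091) with single samples left out. The 99 calls with the covariate (1094 of 8940 in all) ran from 87 (971 of 9110) to 116 (1611 of 9075).

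Same-numbered samples of different time points deviated with a mean correlation of 0.048 (range -0.54 to 0.58 over 24 pairs), so the numbers are not taken as a pairing. With the replicate block the counts were 114, 144, 0 and 125 at 24 h against 0 min, 24 h against 45 min, 45 min against 0 min and over time. Over all 8940 transcripts they were 263, 321, 14 and 676. The replicate block and the number detected together gave 101, 99, 2 and 95, beside 773, 563, 42 and 1428 of all transcripts. In that last fit alone Gna12 changed sign (0.039). The cause was not tested. Among 88 named members 10 lost their call with the covariate, 7 with it after thinning and 18 with no filter; Hsbp1l1 and AK084494 lost it in 20 of the 24 fits with a sample left out, Pfkl in 18, and Fam222a and Lyrm9 in 16.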

Other observations

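Some members lie next to each other in the genome (GRCm38, GENCODE M21). Actc1 and the noncoding C130080G10Rik are 787 bases apart on chromosome 2, with log2 fold changes at 24 h against 0 min of -1.38 and -0.75, and a second transcript of C130080G10Rik that the study placed in M[4] had -0.89. Plxnd1 and Ift122 are 28112 bases apart on chromosome 6 (-0.88 and -2.30), Abcb9 and Pitpnm2 22892 bases on chromosome 5 (-0.67 and -0.72), Ybx2 and Ctdnep1 39551 bases on chromosome 11 (-0.54 and -0.33), and Mfsd4b3 and Mfsd4b1 41422 bases on chromosome 10 (-0.32 and -0.68).

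Transcripts of 1 symbol were at times placed in different modules. Beside its 2 members in M[2], Trim7 had a transcript in M[3] with -0.86. Fam78a had -0.89 for its member and -1.72 for its transcript in M[3], and Tnni3k had a transcript in M[4] with -0.59 while its member did not pass the filter. These transcripts belong to the same gene, and how reads common to them were assigned is not stated in the sources used here.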
